A study of Mus musculus with 3 samples.

Results

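ADAM proteases sit in the cell membrane and cut the outer part off neighbouring membrane proteins, a step called shedding, while ADAMTS proteases are secreted and cut proteins of the extracellular matrix. The genes described are the 10 members Adam8, Adam9, Adam10, Adam12, Adam15, Adam17, Adam19, Adamts1, Adamts4 and Adamts5, found as all noncontrol probes that the array files name for them. That gave 16 of 39429 distinct probes on the arrays and 10 of 30199 gene names. Of the 16 probes, 10 probes of 8 members had signal well above background in both cell lines on all 3 arrays. The other 6, with both probes of Adam19 and both of Adamts5 among them, were not tested, except in a check without the filter.

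In both families a prodomain holds the enzyme inactive until it is removed, usually by furin-type convertases, and a zinc ion in the metalloprotease domain does the cutting. ADAM10 and ADAM17 are the most studied sheddases, releasing Notch receptors, cadherins, cytokines and ligands of the EGF receptor, and TIMP proteins are their natural inhibitors. ADAMTS1, ADAMTS4 and ADAMTS5 cleave the large proteoglycans aggrecan and versican. In tumours these enzymes are studied for the growth factors they release and the matrix they remodel.

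The study compared 2 lines made from RM1, a mouse prostate cancer cell line. RM1-MXRA7 cells carried transfected MXRA7, a gene named after matrix remodelling. RM1-VE cells had received only the vehicle vector. Both were grown with 10% fetal calf serum and 400 μg/mL G418, which selects transfected cells, into exponential phase (day 2). Total RNA of RM1-MXRA7 was labelled with Cy3 and that of RM1-VE with Cy5 on 3 Agilent mouse arrays, numbered as repeats 1 to 3. Every probe thus has 3 log2 ratios, 1 from each array, with RM1-VE as the denominator. The labels do not say whether the transfected cells were clones or pools, whether the repeats were separate cultures, or which promoter drove MXRA7, so p-values measure only the spread between these arrays.

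With no dye swap, a probe's dye bias and a change between the 2 lines cannot be told apart, and the 3 arrays limit the precision. The transfected gene did not check the direction. The brighter Mxra7 probe lay at a log2 ratio of 0.31 ± 0.14 (SD, n = 3) after loess normalization and at 0.0069 once the trend of the ratios over the array surface was removed, and the dimmer probe at 0.10 and 0.091. The prostate genes Pbsn and Tmprss2 and the epithelial genes Epcam, Krt5, Cdh1 and Cldn4 were not well above background on any array, while the androgen-responsive Fkbp5, the keratins Krt8, Krt14, Krt18 and Krt19 and all 6 mesenchymal markers were present in both lines on all arrays. Of 7 leukocyte markers, Cd68, Csf1r, Itgam and Cd3e were well above background in both lines on all arrays and Ptprc on none. The median log2 ratio of those 4 genes was -0.19, or -0.12 with the surface removed. The 13 probes of all 7 markers had summed processed intensities of 3546, 6076 and 8100 in RM1-MXRA7 on arrays 1 to 3. In RM1-VE the sums were 4218, 6068 and 8368. Of 4 endothelial markers, 3 were also well above background in both lines on all arrays. What part the cells behind these leukocyte and endothelial markers have in the results was not tested.

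Each probe is a 60-base sequence that captures the labelled transcript. The probes that carry the results are shown by their first 30 bases, written 5′ to 3′, since 2 probes of 1 gene are separate measurements only as far as their sequences differ. Capitals mark what the printed stretches of the Adam17 probes share. The last of them lies 8 bases further along the transcript than the other and shares 52 of its 60 bases, so these are nearly the same measurement. The Adamts4 probes lie at separate genomic sites. They start at bases 3571 and 4329 of different transcript records. Whether a probe lies in coding or untranslated sequence is not annotated in the sources used here.
Adam8 A_55_P2025765: ccgtcatctccggattgaaacagattagtt
Adam10 A_55_P1967216: gaccagtgagatctaatactactgtcagtt
Adamts1 A_52_P489295: gaaagagctcctgatttcttcttacaccat
Adamts4 A_55_P2159555: aatgagaggaacaggatgtggtctggtatt
Adamts4 A_55_P1955778: cgcatctttgagcattagttttctcatgtg
Adam17 A_55_P2128188: ttgatgtcTGTGAATTACTAATAAAGCTAC
Adam17 A_55_P1999097: TGTGAATTACTAATAAAGCTACgcacatgt

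Adam8, Adamts1 and Adamts4 were lower in RM1-MXRA7 than in RM1-VE cells, and no member was higher in both fits used. A gene is said to have risen or fallen only where 2 fits called it in the same direction at an adjusted p under 0.05, 1 on loess-normalized log2 ratios and 1 on the same ratios after a smooth surface over rows and columns of each array was removed. Values are from the loess ratios unless the surface is mentioned, and adjusted p is limma's with Benjamini-Hochberg over 21792 kept probes, or over 16819 genes for the genes of the lists. By that rule 4 of the 10 kept member probes, of 3 genes, were lower (40%), 0 were higher and 6 were neither, where 12.5% of all kept probes were lower and 11.2% higher. The loess fit alone called 1 member probe higher, that of Adam10. The median of the 10 kept member probes was -0.10, and -0.12 with the surface removed, against -0.011 and 0.0013 for all kept probes.

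Among the secreted proteases, Adamts4 fell on both of its probes. Its brighter probe (chr1:173190709-173190768 on mm9, plus strand) had processed intensities of 1646, 1170 and 1210 in RM1-MXRA7 on arrays 1, 2 and 3 and of 2219, 1741 and 1939 in RM1-VE. All 3 RM1-MXRA7 values lay under all 3 RM1-VE values. The log2 ratios on the 3 arrays were -0.63, -0.67 and -0.79, averaging -0.70 ± 0.08 (SD, n = 3; limma adjusted p = 2.65e-06), or 1.62-fold lower, and -0.54 ± 0.13 with the surface removed (limma adjusted p = 0.000418).

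The other Adamts4 probe (chr1:173189952-173190011, plus strand) read 664, 519 and 646 in RM1-MXRA7 and 782, 740 and 996 in RM1-VE, again without overlap. Its log2 ratios were -0.43, -0.62 and -0.69, with a mean of -0.58 ± 0.13 (SD, n = 3; limma adjusted p = 2.6e-05), or 1.49-fold lower, and of -0.46 ± 0.18 with the surface removed (limma adjusted p = 0.0020). Both probes were thus lower on 3 of 3 arrays at 2 separate genomic sites. Of 3221 genes with 2 kept probes, both were lower in both fits in 118 (3.66%), and the median absolute difference between the log2 ratios of such a pair was 0.23. In bulk RNA, fewer cells with a transcript and less of it per cell cannot be told apart, here or for the genes below.

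Adamts1, which encodes an aggrecan- and versican-cleaving protease with a described antiangiogenic activity, was lower by a smaller amount. Its probe (chr16:85795044-85795103, minus strand) had processed intensities of 468, 345 and 240 in RM1-MXRA7 and of 511, 354 and 320 in RM1-VE. RM1-MXRA7 was lower on each array, but the lines overlapped across arrays. The log2 ratios were -0.36, -0.16 and -0.55, a mean of -0.36 ± 0.20 (SD, n = 3; limma adjusted p = 0.00238), and the mean was -0.23 ± 0.18 with the surface removed (limma adjusted p = 0.0422). The surface-removed ratio lay at -0.30 without array 2 and at -0.13 without array 3 and then did not pass (limma adjusted p = 0.0576 and 0.222), and the processed intensities gave -0.19 (limma adjusted p = 0.169). Adamts5, the other main aggrecan-cleaving protease, had 2 probes with no signal well above background in either line, so no difference can be given for it.

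Among the membrane proteases, Adam8 had the lowest ratio. ADAM8 is found on leukocytes and on several tumour types. Its probe (chr7:147164873-147164932, minus strand) had processed intensities of 1704, 1364 and 909 in RM1-MXRA7 and of 2347, 1985 and 1898 in RM1-VE, with no overlap. The log2 ratios were -0.53, -0.65 and -1.01, a mean of -0.73 ± 0.25 (SD, n = 3; 95% interval -0.92 to -0.54; limma adjusted p = 9.55e-06), or 1.66-fold lower. With the surface removed the mean was -0.65 ± 0.33 (limma adjusted p = 0.00184), and only 1.55% of all kept probes had a lower one. Array 3 was the farthest from 0 for Adam8, and without it the surface-removed ratio was -0.46 (limma adjusted p = 0.000101). Adam8 has 1 probe on the array.

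The sheddase Adam10 was level once the surface was removed. Its probe (chr9:70627859-70627918, plus strand) had processed intensities of 4160, 4006 and 3744 in RM1-MXRA7 and of 4126, 3940 and 3640 in RM1-VE, and the lines overlapped. Its loess log2 ratios were 0.33, 0.41 and 0.21, a mean of 0.32 ± 0.10 (SD, n = 3; limma adjusted p = 0.00302), while the mean was 0.0015 ± 0.02 with the surface removed (95% interval -0.12 to 0.13; limma adjusted p = 0.987). The spot lies in row 59, where the fitted surface averaged 0.32 over the arrays. A running median over neighbouring spots, subtracted in place of the polynomials, left 0.21 (limma adjusted p = 0.0173), so the call on Adam10 depends on how the surface is modelled. With median centring in place of loess, which moved the median of all probes to -0.27, Adam10 lay under 0, at -0.11 (limma adjusted p = 0.23).

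The sheddase Adam17, known for the release of TNF, did not pass in either fit. Its brighter probe (chr12:21329378-21329437, minus strand) read 63.1, 69.2 and 64.6 in RM1-MXRA7 and 63.3, 79.3 and 70.0 in RM1-VE. Its log2 ratio averaged -0.045 ± 0.11 (SD, n = 3; 95% interval -0.21 to 0.12). That of the overlapping probe was -0.11 ± 0.04 (SD, n = 3; 95% interval -0.26 to 0.05). With the surface removed the intervals ran from -0.22 to 0.05 and from -0.25 to 0.02. Both probes were dim, at processed intensities under 80, where normexp with an offset draws ratios towards 0, so these intervals do not bound the change in RNA. The processed intensities gave -0.11 and -0.14.

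Adam9, a widely expressed membrane protease, did not pass in either fit. Its probe (chr8:26060251-26060310, minus strand) had processed intensities of 4920, 4077 and 4459 in RM1-MXRA7 and of 4324, 4437 and 4671 in RM1-VE, so the lines overlapped. Its log2 ratios were 0.40, -0.0094 and 0.12, a mean of 0.17 ± 0.21 (SD, n = 3; limma adjusted p = 0.111), and the mean was 0.0048 with the surface removed (95% interval -0.15 to 0.16). Array 1 was the high one of the 3. With median centring in place of loess, which moved the median of all probes to -0.27, Adam9 lay at -0.29 (limma adjusted p = 0.0356).

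Adam15, an ADAM with an integrin-binding RGD-type disintegrin domain in human, likewise did not pass. Its probe was bright, with processed intensities of 10943, 12260 and 12627 in RM1-MXRA7 and of 13317, 14784 and 12934 in RM1-VE. The lines did not overlap in these values, yet the loess log2 ratios were -0.17, -0.28 and 0.15 and changed sign between arrays. The mean was -0.10 ± 0.22 (SD, n = 3; limma adjusted p = 0.367), and -0.13 ± 0.11 with the surface removed (95% interval -0.27 to 0.0099; limma adjusted p = 0.137). It passed in the loess fit without array 3, at -0.22 (limma adjusted p = 0.047). It also passed with median centring, at -0.72 (limma adjusted p = 0.000198), where the median of all probes was -0.27 and 12294 of 21792 were lower.

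Adam12, a protease of muscle, placenta and tumour stroma, had 3 probes, of which 1 was kept. That probe joins sequence that spans 2237 bases of the genome (chr7:141079625-141081861, minus strand), more than its own 60 bases, and so reads spliced RNA. It read 24.8, 20.3 and 22.6 in RM1-MXRA7 and 23.4, 22.6 and 22.8 in RM1-VE. Its log2 ratio averaged -0.045 ± 0.08 (SD, n = 3; limma adjusted p = 0.646), and the processed intensities gave -0.029. The probe was dimmer than those of Adam17, so this ratio does not bound the change in RNA either. Another Adam12 probe was well above background on 1 array of 3 and the last on none. The 2 probes of Adam19 were not well above background in either line on any array.

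**Figure D1:**
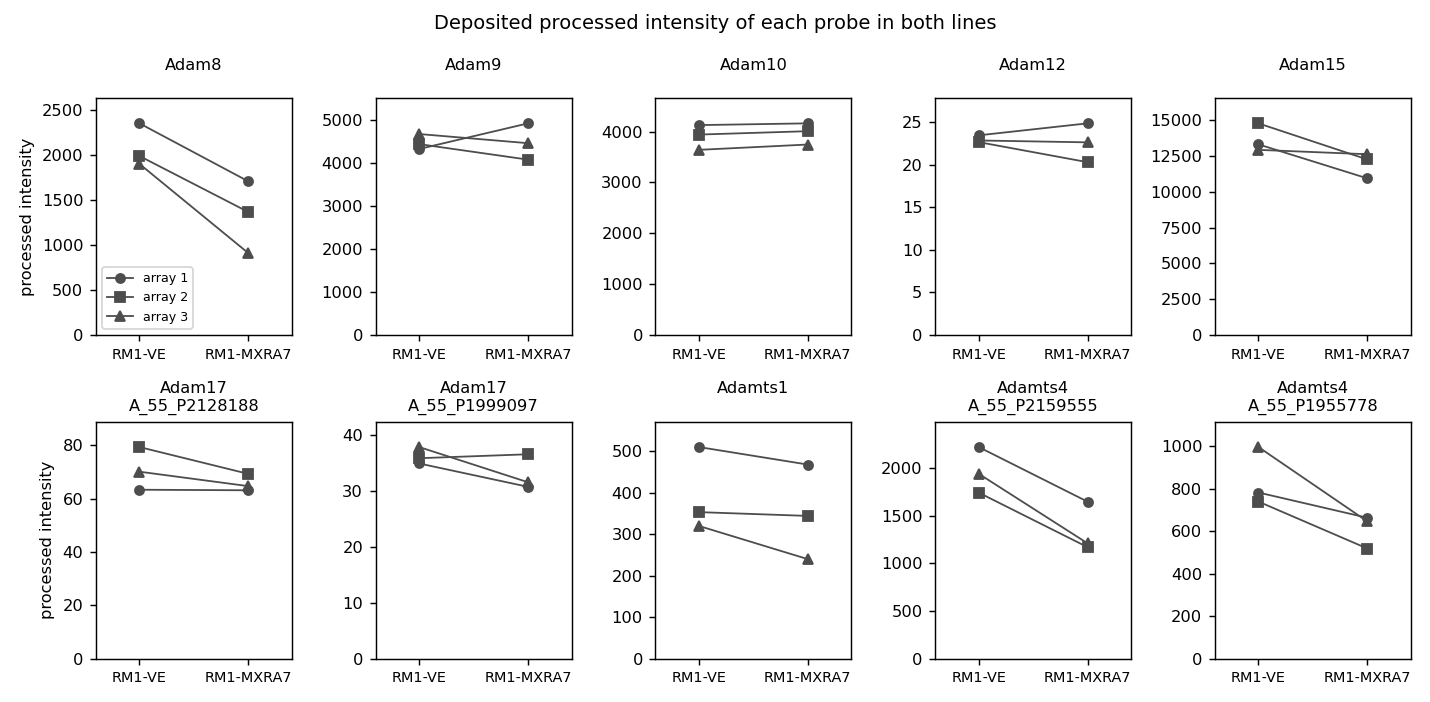
Deposited processed intensity (vertical axes, linear from 0, own scale for each probe) of the 10 kept member probes in RM1-VE and RM1-MXRA7, with a line joining the values of 1 array. Adam8 and both Adamts4 probes drop on all 3 arrays without overlap between the lines, whereas the Adam10 lines are nearly flat. Adam15 also drops on all 3 arrays without overlap but was called in neither fit.

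**Figure D2:**
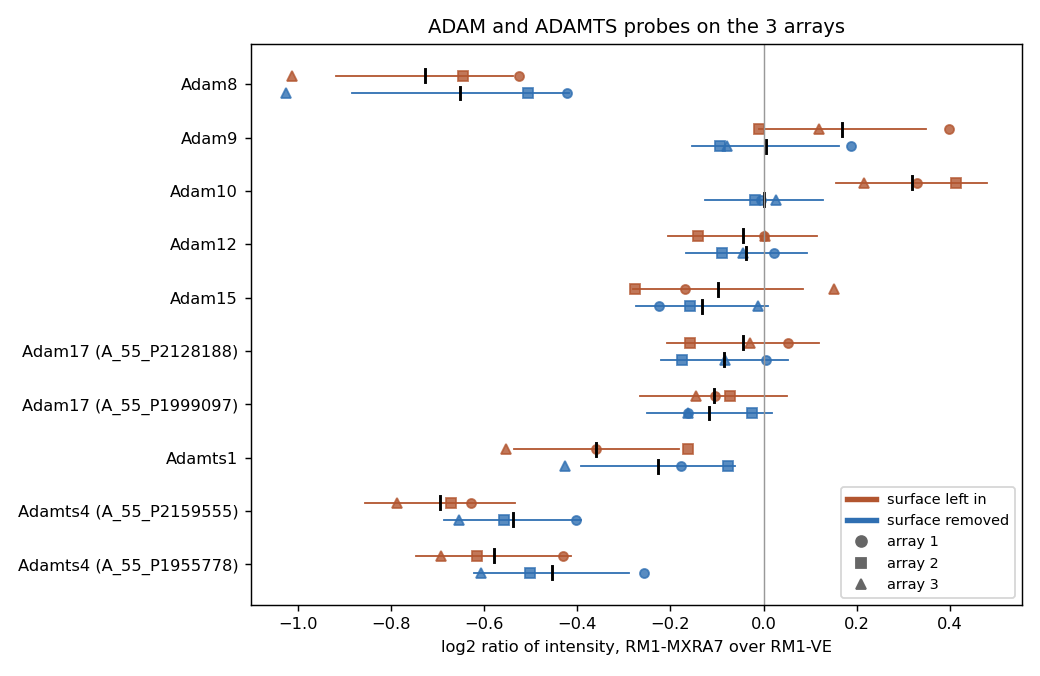
Log2 ratio of RM1-MXRA7 over RM1-VE for each kept member probe, with the surface left in (upper, brown) and removed (lower, blue). Symbols are arrays 1 to 3, black ticks the means (n = 3) and horizontal lines limma's 95% intervals. Adam8 and Adamts4 stay left of 0 in both, and Adam10 moves from 0.32 to 0.0015.

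The log ratios ran along the rows of the arrays. The median log2 ratio of kept probes in bands of rows ran from 0.31 to -0.23 on array 1, from 0.39 to -0.20 on array 2 and from 0.26 to -0.25 on array 3. The fitted surface took 27.4%, 26.3% and 19.8% of the variance of the ratios on arrays 1, 2 and 3. The probes that fell lie in rows 305 to 397, where the row medians were lower than in the first rows. At their spots the surface averaged -0.076 for Adam8, -0.16 and -0.12 for the Adamts4 probes and -0.13 for Adamts1, which is a larger share of the ratio for Adamts1 than for the others. Whether a surface of another form remains in these ratios was not tested beyond the running median, with which all 4 probes were still lower.

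**Figure D3:**
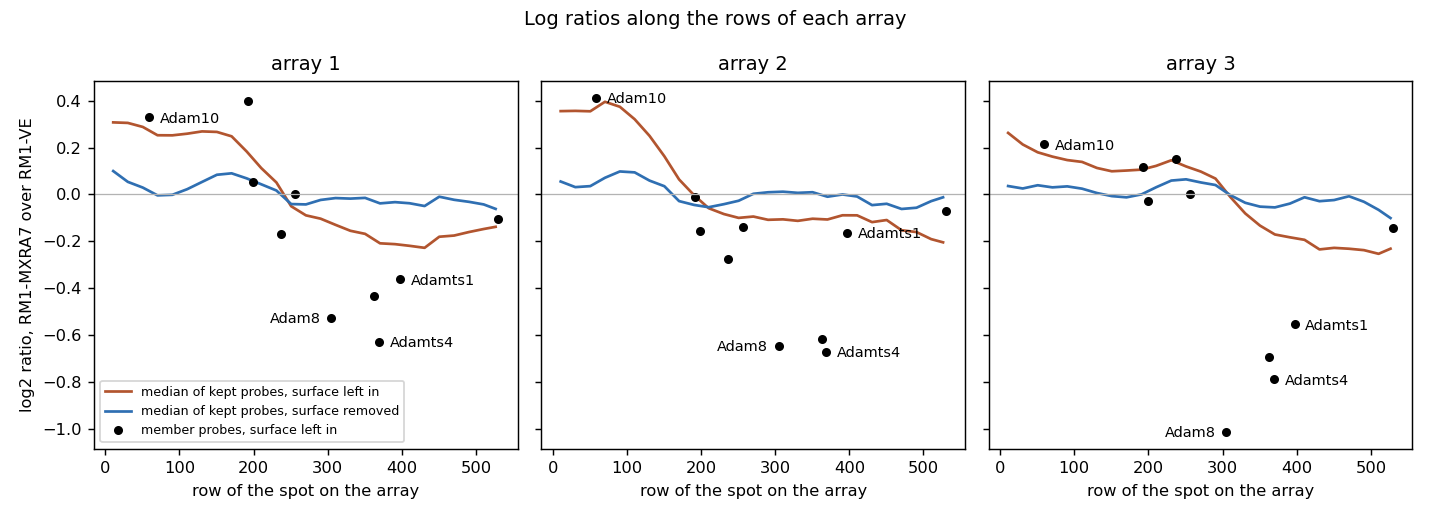
Log2 ratio of RM1-MXRA7 over RM1-VE against the row of the spot on each array. Lines are medians of all kept probes in bands of rows, with the surface left in (brown) and removed (blue), and points are the 10 kept member probes with the surface left in. Adam10 lies on the raised line near row 59, and Adam8 and Adamts4 lie well under the line of their rows.

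RefSeq promoter windows (GRCm38.p6) were held for 6 of the 10 members. The 250 bases upstream of the annotated start of 2 genes that fell, Adam8 and Adamts1, are shown because the genes moved in the same direction, each 5′ to 3′ on the gene's strand (Adam8 at chr7:139992563-139992812, minus; Adamts1 at chr16:85803114-85803363, minus). Capitals mark matches to 4 motifs searched on both strands, the GC box GGGCGG, the TATA box TATAAA, the AP-1 site TGANTCA and the CRE TGACGTCA. These were in 32.7%, 12.4%, 6.75% and 1.55% of 32851 windows of the same length.
Adam8: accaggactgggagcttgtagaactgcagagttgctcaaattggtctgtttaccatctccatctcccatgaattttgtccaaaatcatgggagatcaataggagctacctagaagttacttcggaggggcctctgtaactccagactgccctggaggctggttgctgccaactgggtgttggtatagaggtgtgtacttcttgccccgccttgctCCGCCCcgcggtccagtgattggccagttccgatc
Adamts1: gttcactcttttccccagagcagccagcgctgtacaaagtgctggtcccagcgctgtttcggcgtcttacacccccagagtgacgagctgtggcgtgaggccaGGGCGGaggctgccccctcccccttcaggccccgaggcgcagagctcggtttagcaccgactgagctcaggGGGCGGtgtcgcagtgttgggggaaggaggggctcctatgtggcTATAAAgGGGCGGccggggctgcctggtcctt
The Adam8 window held 1 GC box, on the opposite strand and read here as its complement, with its first base 35 bases before the start. The Adamts1 window held 3 GC boxes, 147, 76 and 25 bases before the start, and 1 TATA box at 32. The GC content was 52.8% for Adam8 and 65.6% for Adamts1, against a median of 52.4% over all windows. The windows of Adam10, Adam15 and Adam17, which did not pass in both fits, held 3, 1 and 1 GC boxes and no TATA box. A match is a run of letters and no evidence of binding.

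The remaining genes of both families, and those that activate, inhibit or are cut by the proteases, were followed through lists, each gene by its brightest kept probe. Among all 16819 genes with a kept probe, 10.9% were higher and 12.9% lower in both fits, and the median log2 ratio was -0.015, or -0.0011 with the surface removed. Of 26 other ADAM genes 8 were measured, and 0 rose and 0 fell, with a list median of -0.050. That result depends on the processing. In the processed intensities Adam23 (0.55) and Adam32 (0.46) were higher. Adam6b (-0.40), Adam11 (-0.30) and Adam33 (-0.25) were lower there, each of these genes at a limma adjusted p under 0.05. They are named after their values were seen. The Adam6b, Adam23 and Adam32 probes were dimmer than those of Adam17, where the offset draws loess ratios towards 0.

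Of 22 other ADAMTS and ADAMTS-like genes 10 were measured, of which 4 fell and 1 rose, with a list median of -0.13. Adamtsl5, which encodes a secreted protein that resembles ADAMTS proteases but lacks the protease domain, had log2 ratios of -0.65, -0.66 and -0.91 on the arrays, a mean of -0.74 ± 0.15 (SD, n = 3), or 1.67-fold lower. Its other kept probe, at -0.28, was also lower in both fits. Adamts14, a procollagen N-proteinase, lay at -0.51 and at -0.30 with the surface removed. Adamts7 measured 1.24-fold lower (limma adjusted p = 0.0051). Adamtsl1 measured 1.17-fold lower, was not called in both fits when any 1 array was left out, and is named after its values were seen. Neither Adamts7 nor Adamtsl1 was well above background in RM1-MXRA7 on any array, so the size of each fall is uncertain. Adamtsl3 rose, by 0.31, by 0.23 with the surface removed and by 0.69 in the processed intensities. It was well above background in RM1-VE on only 2 of 3 arrays, so the size of its rise is uncertain. Without array 2 the list had 1 lower, Adamtsl5, and 0 higher, and Adamtsl3 was not called without array 1 either. Adamtsl5 was lower without each array in turn.

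Of 7 inhibitor and clearance genes 3 were measured, and none of Timp1, Timp2 and Lrp1 passed in both fits on the probe used. Timp2, an inhibitor of metalloproteases, lay at 0.60 before and 0.019 after removal of the surface, while its dimmer probe lay at 0.51 and 0.26 and was higher in both fits. Timp1 lay at -0.092 and 0.12. Lrp1, an endocytic receptor that clears secreted proteases, lay at 0.14 and 0.23, and its dimmer probe, at 0.25 and 0.17, was higher in both fits. The list median was 0.14.

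Of 13 genes of maturation and trafficking 9 were measured, of which 2 rose and 1 fell, with a list median of 0.013. Furin, the convertase that removes prodomains, had log2 ratios of 0.64, 0.71 and 0.29, a mean of 0.54 ± 0.23 (SD, n = 3), and of 0.35 with the surface removed. The inactive rhomboids iRhom1 and iRhom2, encoded by Rhbdf1 and Rhbdf2, carry ADAM17 to the cell surface, and their genes went in opposite directions. Rhbdf1 lay at 0.56 ± 0.08 and Rhbdf2 at -0.65 ± 0.24 (SD, n = 3 each), and at 0.20 and -0.47 with the surface removed. Without array 2 none of these 3 calls held in both fits, and the list had 0 higher and 0 lower. Rhbdf1 was not called without array 3 either, where the list had 1 higher.

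Of 32 membrane proteins known to be shed 25 were measured, of which 7 rose and 1 fell, with a list median of 0.18, or 0.086 with the surface removed. Dll1, a Notch ligand, rose by 0.92, 0.71 and 0.65 on the arrays, a mean of 0.76 ± 0.15 (SD, n = 3; limma adjusted p = 3.71e-06), and by 0.73 with the surface removed. Prnp, the prion protein gene, rose by 0.68 ± 0.04 (SD, n = 3) and by 0.50 with the surface removed. The adhesion receptor gene Vcam1 lay at 0.62 and at 0.25 with the surface removed, but its dimmer probe lay at 0.0030. The receptor tyrosine kinase gene Axl lay at 0.54 and 0.28. Areg, the amphiregulin gene and a classical ADAM17 substrate, named after its values were seen, was the 1 that fell, with -0.031, -0.84 and -0.86 on the arrays. Without array 2 the list had 3 higher, Axl not among them, and 0 lower. Areg was not called without array 3 either, nor was Vcam1, while Dll1 and Prnp were higher without each array in turn.

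Of 14 matrix substrates and partners of ADAMTS proteases 7 were measured, of which 2 rose and 1 fell, with a list median of -0.0017. Vcan, the versican gene, had log2 ratios of 0.53, 0.51 and 0.44, a mean of 0.49 ± 0.05 (SD, n = 3), and of 0.33 with the surface removed. Its dimmer probe lay at 0.17 and 0.034 and did not pass. Thbs1, the thrombospondin 1 gene, lay at 0.49 ± 0.22 (SD, n = 3) and did not hold without array 3, with 1 higher in the list. Thbs2, the thrombospondin 2 gene, was well above background in RM1-VE on all 3 arrays and in RM1-MXRA7 on 1 of 3, so the size of its fall is uncertain. The log2 ratio was -1.40 ± 0.27 (SD, n = 3; limma adjusted p = 1.42e-08), -1.34 with the surface removed and -2.68 in the processed intensities.

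The gamma-secretase complex cuts the stubs that shedding leaves in the membrane, and all 6 of its genes were measured. Of these 2 rose and 0 fell, with a list median of 0.064. Psen2, which encodes the alternative catalytic subunit presenilin 2, had log2 ratios of 0.91, 0.77 and 1.26, a mean of 0.98 ± 0.25 (SD, n = 3; limma adjusted p = 8.77e-07), or 1.97-fold higher, and of 1.00 with the surface removed. Psenen lay at 0.26 ± 0.25 (SD, n = 3) and at 0.21 with the surface removed. Its dimmer probe, placed on chromosome 4 where the brighter is placed on chromosome 7, lay at -0.12 and 0.17 and did not pass. Without array 2 or array 3 only 1 gene of the complex, Psen2, was higher.

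**Figure D4:**
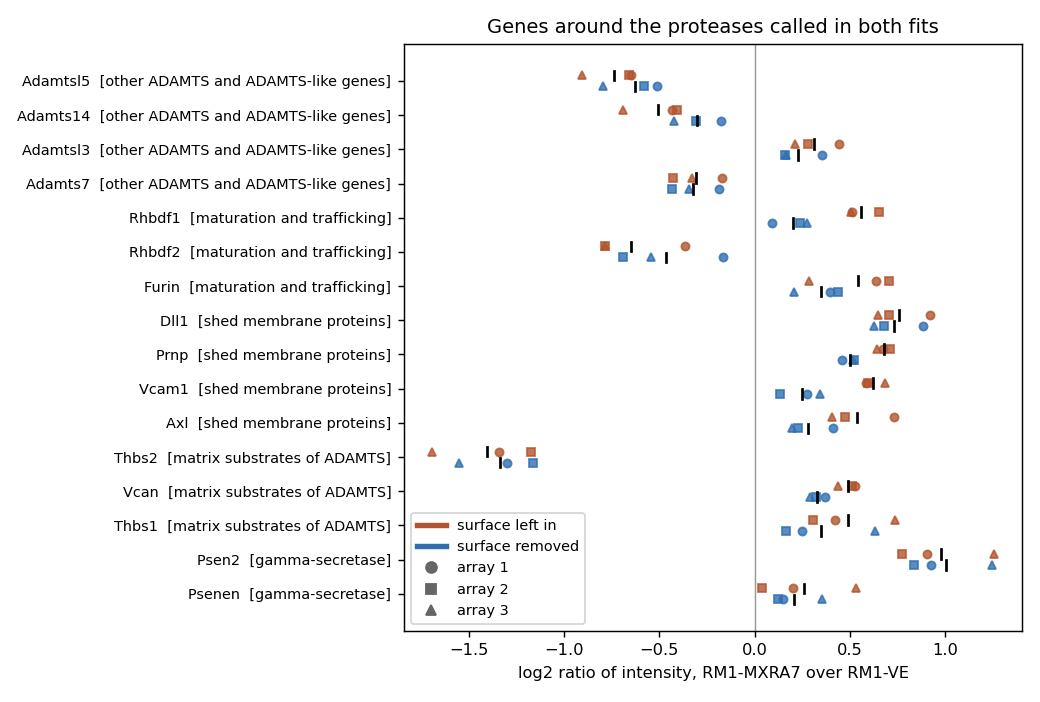
Log2 ratio of RM1-MXRA7 over RM1-VE for the genes named by rule from the lists, up to 4 per list and all called in both fits, with the surface left in (brown) and removed (blue). Symbols are arrays 1 to 3 and black ticks the means (n = 3). Psen2 lies to the right of 0 on all 3 arrays with a mean of 0.98, and Thbs2, whose RM1-MXRA7 signal was above background on only 1 array, lies to the left on all 3.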

How the data were processed

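RNA of RM1-MXRA7 (Cy3) and RM1-VE (Cy5) was compared on 3 Agilent 2-colour arrays of 1 slide, scanned on 1 date. The authors deposited, per the file headers, Agilent Feature Extraction output (version 10.7.1.1 per the submitters' processing notes) with mean, background and processed intensity per spot, the last background-subtracted, detrended and dye-normalized, and probe coordinates on mm9. The deposited matrix of the series has 1 linear ratio per probe, which equalled processed Cy3 over Cy5 within 1% for 99.7% to 99.8% of values, with column medians of 1.02, 1.03 and 0.972. It is thus a Cy3 over Cy5 ratio without centring, and which line is higher rests on the dyes given in the labels.

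Mean intensities were corrected with normexp (offset 50) and loess-normalized within arrays with control spots at weight 0, in limma 3.58.1 under R 4.3.3. Control spots and outlier flags were left out. Probes well above background in at least 1 line on all 3 arrays were kept and tested with lmFit and eBayes against a log2 ratio of 0 (15.0 prior degrees of freedom, 7.34 after surface removal), with Benjamini-Hochberg adjustment. The surface was a polynomial of degree 4 in row and column, alone and times log2 intensity, per array. Of all probes, 5278 were higher and 5035 lower in the loess fit. With median centring in place of loess the median of all probes moved to -0.27, with 1278 higher and 12294 lower. Gene names were updated through RefSeq for 27508 probes. The steps were tested on simulated data.

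The members and lists were chosen with earlier results of these data known. Named genes are every member, Mxra7 and up to 4 genes per list called in both fits, by smallest adjusted p. Some marker and list genes are not reported here.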

Additional observations from a re-analysis of the deposited data

How the results depend on the processing

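Under 14 alternatives the ratio of Adamts4 kept its direction and call on both probes. That of Adam8 kept both except in single channels without the replicate block (limma adjusted p = 0.076). The alternatives were not all separate, since the series matrix repeats the processed signals and single channels with the replicate block repeat the loess fit. By 1 fit at a time, member probes called lower numbered 4. They numbered 3 with processed signals and the series matrix (without Adamts1), 6 with median centring and 5 with no filter. With an array left out of the loess fit they numbered 4 to 5, and in single channels without the block 2. Member probes called higher numbered 1, Adam10, but 0 with the polynomial surface removed, with Agilent processed signals, the series matrix, median centring and single channels without the block, 2 with no filter and 0 to 1 with an array left out. The calls added with no filter were on probes not kept, whose signal was too near background for a ratio to be read. Called in both fits were 0 higher, or 1, Adam10, with the running median. Lower in both fits were 4, but 3 without array 2, without array 3 or at a threshold of 0.01, each time without Adamts1. Adam10 lay at -0.11 with median centring, where the median of all probes was -0.27.

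Of all probes, 5278 were higher and 5035 lower. Surface removal gave 3408 higher, processed signals and the series matrix 2507 and 2614, median centring 1278 and 12294, single channels without the block 1457 and 1243, and arrays left out 3285 to 5020 and 3243 to 4291. With the replicate block, single channels gave 5278 and 5035. Mxra7 lay at 0.0069 with the surface removed, -0.034 with processed signals and the series matrix, -0.023 with median centring, 0.31 (limma adjusted p = 0.146) without the block and 0.27 to 0.39 with an array left out.

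With an array left out, both fits called 0 to 1 higher and 1 to 4 lower of the other ADAMTS genes, 0 to 2 and 0 to 1 of maturation, 3 to 6 and 0 to 1 of shed proteins, 1 to 3 higher of matrix substrates and 1 to 2 higher of gamma-secretase. The causes were not tested. Signal over background leaves Adam19 and Adamts5 without a measured ratio.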
